A study of Homo sapiens with 21 samples.

Results

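Day 14 spheroids of HepG2/C3A cells were compared with Day 10 spheroids of the same line, 3 libraries a side, over all genes measured. The 6 libraries, of 21 in the series, are grouped by their labels, and this step was picked with earlier results known, as the largest between consecutive days. The series follows HepG2/C3A, a clone of a human liver cancer line that is kept for its hepatocyte features, from a 2D monolayer through 3D spheroids at Days 3, 7, 10, 14, 21 and 28, with 3 libraries in each group. All groups carry the wild-type genotype and share 1 culture medium, MEM with serum, non-essential amino acids and antibiotics. Day 10 and Day 14 spheroids were both aggregated in ultra-low attachment plates and then kept turning in a ClinoReactor, so the groups differ in their labels only by time. RNA was read by TempO-Seq, in which pairs of detector oligos are ligated on their target RNA and counted. The replicates are labelled biological, with no word on whether each was its own culture; every p-value therefore rests on the spread of these libraries. One line of 1 clone stands for the hepatocyte here, and no label gives a batch, so the day and anything else that changed between the collections cannot be told apart.

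Cells that divide make DNA, histones and the spindle at set points of the cycle, and the genes for these are switched on together by E2F, B-MYB and FOXM1 complexes. Growing cells also make their own cholesterol and fatty acids, through genes driven by SREBP transcription factors. When amino acids run short or the stress kinases of the eIF2 pathway are active, the transcription factor ATF4 raises genes for amino acid synthesis, uptake and tRNA charging.

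The hepatocyte label was checked on 9 hepatocyte markers, which summed to 49652 to 51440 CPM (counts scaled to the library total, so that libraries can be compared) in the Day 10 libraries and 37329 to 41262 CPM at Day 14, and 0 of them averaged under 1 CPM. Of 9 endothelial markers 7 averaged under 1 CPM, as did 7 of 9 stellate cell, 5 of 9 leukocyte and 6 of 9 cholangiocyte markers. The endothelial sum was 23.5 to 24.6 CPM at Day 10 and 24.0 to 33.4 CPM at Day 14, and the stellate sum 24.2 to 32.1 and 15.5 to 20.6 CPM. The leukocyte sum was 215 to 224 and 167 to 189 CPM. The cholangiocyte sum was 746 to 770 and 229 to 305 CPM, nearly all of it ANXA4, an annexin that hepatoma cells also express. The part of these markers in the results below was not tested. Totals were 24296372, 37718667 and 31140914 counts at Day 10 and 33110183, 28137895 and 28455982 at Day 14. Pairs of Day 10 libraries differed by a root mean square of 0.507 to 0.513 on the log2 scale and pairs of Day 14 libraries by 0.485 to 0.506, against 0.774 to 0.920 between the days. Day 14 replicate 3 lay farthest from Day 10.

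Of 12345 genes tested, 5967 were called at an adjusted p under 0.05 in edgeR's quasi-likelihood test with Benjamini-Hochberg adjustment, which is 48.3% of all. Higher at Day 14 were 2968 genes (24.0%) and lower 2999 (24.3%). The higher genes were 49.7% of those called, against 56.2% when scaled by library size alone and 56.5% with upper quartile scaling. At least 2-fold changes were fewer, 516 higher (4.18%) and 845 lower (6.84%), and the median log2 fold change of all genes was 0.02. The libraries of the days did not overlap in 6826 genes (55.3%). Of the 5 consecutive steps of the spheroid series this one had the most called genes: the others had 2393 from Day 3 to 7 (19.4%), 3382 from Day 7 to 10 (27.4%), 3289 from Day 14 to 21 (26.6%) and 2964 from Day 21 to 28 (24.0%). Changes of at least 2-fold numbered 227, 225, 312 and 299 in those steps, against 1361 here. The order is a description with no test, and the steps last 4, 3, 7 and 7 days, against 4 here. Below, each gene list is set against the 24.0% and 24.3% of all genes called higher and lower, and a log2 fold change is given with its standard error.

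**Figure D1:**
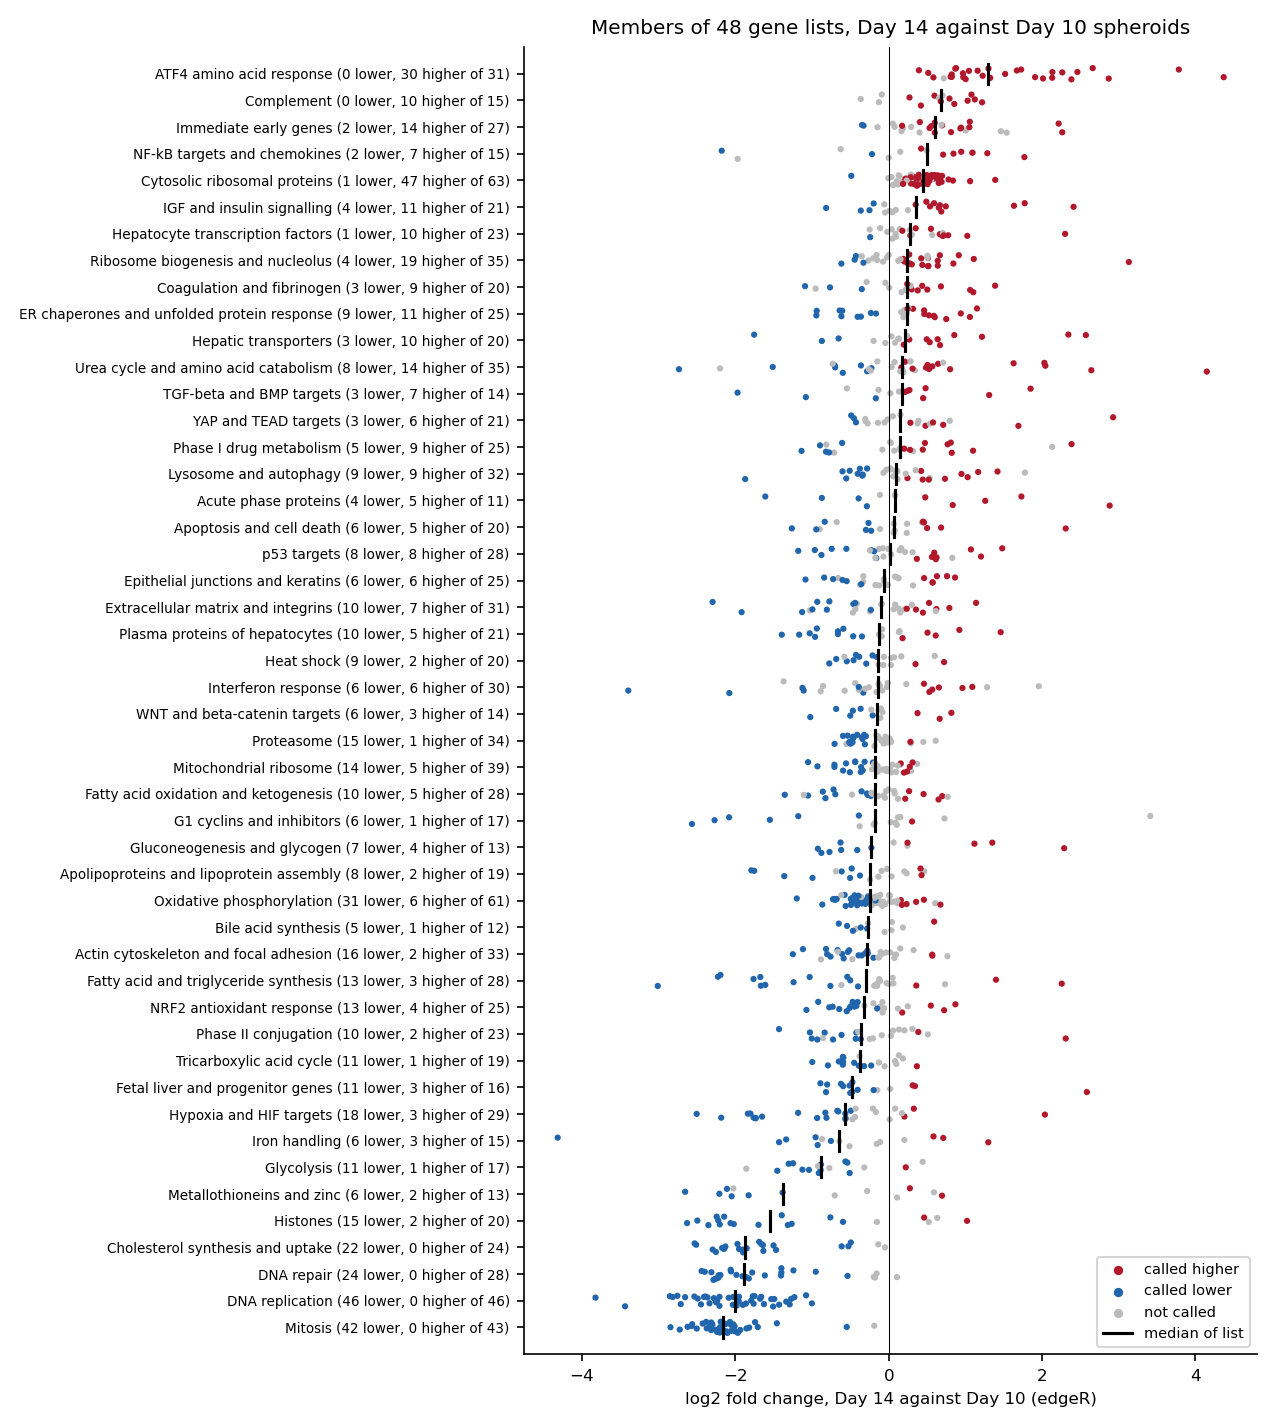
Each point is 1 gene of a list, placed by its log2 fold change of Day 14 against Day 10; red and blue points were called higher and lower, grey points were not called, and the black bar is the list's median. The lists run from Mitosis, with a median of -2.17, at the bottom to the ATF4 amino acid response, with a median of 1.30, at the top.

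Genes of DNA replication and mitosis were lower at Day 14 almost without exception. All 46 tested genes of the DNA replication list were called lower (median log2 fold change -2.01), as were 42 of 43 mitosis genes (-2.17), 24 of 28 DNA repair genes (-1.89) and 15 of 20 histone genes (-1.55), and 0 genes of the first 3 lists were called higher. RRM2, the small subunit of ribonucleotide reductase (chromosome 2, 10120698 to 10131419, plus strand, GRCh38), stood at 188, 179 and 165 CPM in the Day 10 libraries and at 22, 18.1 and 8.84 CPM at Day 14. The Day 14 libraries all lay far below the Day 10 libraries, with replicate 3 lowest. RRM2 fell by 3.44 ± 0.27 on the log2 scale (adjusted p = 4.33e-08). MKI67, the proliferation antigen Ki-67, read 137, 132 and 132 CPM at Day 10 and 33.3, 31.7 and 22.1 CPM at Day 14. Again there was no overlap, and MKI67 had a log2 fold change of -2.2 ± 0.17 (adjusted p = 6.37e-09). In bulk RNA fewer dividing cells and less of each RNA per cell cannot be told apart.

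Among replication genes MCM10, which helps to activate the replicative helicase, went from 191 ± 10.0 to 27.1 ± 8.55 CPM (mean ± SD, n = 3), and EXO1, a DNA exonuclease, from 61.2 ± 2.45 to 8.43 ± 2.51 CPM. Among mitosis genes SPC25, a kinetochore protein, went from 85.8 ± 12.8 to 11.9 ± 3.98 CPM. CCNA2, cyclin A2, went from 297 ± 24.9 to 44.8 ± 14.2 CPM and AURKB, the Aurora B kinase, from 81.3 ± 8.47 to 13.2 ± 4.06 CPM. These fell by 2.62 to 2.86 on the log2 scale, with no overlap between the days. FOXM1, a transcription factor of the late cycle, was the 1 mitosis gene not called; it read 0.217 ± 0.0771 and 0.186 ± 0.0559 CPM, with a log2 fold change of -0.19 ± 0.73 (adjusted p = 0.853).

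Many repair and histone genes fell as well. BRCA2, which loads the recombinase at breaks, was at 10.1 ± 2.2 CPM at Day 10 and 1.92 ± 0.592 CPM at Day 14, and BLM, a helicase, at 61.1 ± 4.45 and 12.3 ± 3.02 CPM. The histone H2AC4 fell from 644 ± 47.0 to 104 ± 39.8 CPM, the linker histone H1-5 from 227 ± 27.1 to 40.2 ± 17.5 CPM and H2BC5 from 594 ± 55.8 to 116 ± 33.7 CPM. Histone genes are near-identical copies, so their single-gene values are uncertain. FAM111B, a protease, DUT, which clears dUTP, CENPI, a centromere protein, and TICRR, a replication regulator, were also among the 8 largest falls. Those falls were taken among genes that averaged 10 CPM or more and whose days did not overlap. In that order the log2 fold changes were -3.10, -2.93, -2.88 and -2.82.

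The summed level of the tested mitosis genes was 4345, 4283 and 4053 CPM in the Day 10 libraries and 1134, 1022 and 711 CPM at Day 14. Histones summed to 10423, 11159 and 9381 CPM and then to 3944, 3464 and 2504 CPM. Day 14 replicate 3 was the lowest library for both sums. Mitosis genes averaged 3482 CPM at Day 3, 2991 CPM at Day 7, 1086 CPM at Day 21 and 807 CPM at Day 28, and 361 CPM in the monolayer. Among the G1 genes, 6 of 17 were called lower and 1 higher. CDK2, the kinase of S phase entry, read 4.01, 6.51 and 14.3 CPM at Day 10 and 1.65, 1.89 and 1.63 CPM at Day 14; its log2 fold change of -2.27 ± 0.80 (adjusted p = 0.0302) became -1.63 without Day 10 replicate 3, and 4 of 15 other settings lost the call. CDKN1A, the p21 inhibitor of the cycle, was lower too, at 1.24 ± 0.0828 and 0.544 ± 0.256 CPM (log2 fold change -1.18 ± 0.39, adjusted p = 0.0122), a call lost in 2 of 15 other settings.

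Promoters are shown for lists in which most members moved the same way. Both the lists and the letters come from textbook knowledge. The shares below therefore describe the lists, and their part in the changes was not tested. The letters TTTGAA (the core of the cell cycle homology region, CHR) on either strand were in 25 of the 36 mitosis promoters in the RefSeq table (69.44%), against 15.43% of all 27305 promoters and 9.97% of the 9932 promoters of tested genes. CCAAT was in 29 of the 36 (80.56%), against 35.7% and 37.06%. The E2F letters TTTGGCGC or TTTCCCGC were in 19 of 39 replication promoters (48.72%), against 2.31% and 3.63%. Each promoter spans 250 bases before to 50 after the start, matches on both strands were counted, and a match that overlapped another was kept. AURKA, BUB3, TTK, TPX2, UBE2C, BIRC5 and FOXM1 of the mitosis list had no entry, nor had replication genes such as MCM4, MCM5, GINS4, RPA2, CCNE2 and E2F8. A match describes the letters and does not show binding. The 3 mitosis promoters below are those of the members that changed most, at 5 CPM or more, and hold TTTGAA and CCAAT, or their reverse complements, in capitals within 120 bases before the start (GRCh38.p14): DLGAP5 at chr14:55191586-55191705 on the minus strand, PLK1 at chr16:23678769-23678888 on the plus strand and KIF11 at chr10:92593010-92593129 on the plus strand.
DLGAP5: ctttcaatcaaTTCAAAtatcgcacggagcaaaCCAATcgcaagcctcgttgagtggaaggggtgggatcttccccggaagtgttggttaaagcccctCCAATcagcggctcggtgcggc
PLK1: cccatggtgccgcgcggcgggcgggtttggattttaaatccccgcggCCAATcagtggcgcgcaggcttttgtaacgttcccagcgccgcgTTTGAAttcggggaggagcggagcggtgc
KIF11: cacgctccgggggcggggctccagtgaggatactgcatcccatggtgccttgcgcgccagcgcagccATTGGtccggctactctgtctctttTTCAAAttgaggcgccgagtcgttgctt

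DLGAP5, a spindle protein, fell by 2.57 on the log2 scale, PLK1, the kinase of mitotic entry, by 2.43 and KIF11, the motor that separates the spindle poles, by 2.26. For the replication genes GINS2, UHRF1 and DTL the capitals mark TTTGGCGC or TTTCCCGC, or their reverse complements. GINS2 lies at chr16:85688955-85689074 on the minus strand, UHRF1 at chr19:4909381-4909500 on the plus strand and DTL at chr1:212035628-212035747 on the plus strand.
GINS2: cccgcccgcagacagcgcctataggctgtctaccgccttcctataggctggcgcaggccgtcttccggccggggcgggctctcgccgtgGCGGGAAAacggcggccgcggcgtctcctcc
UHRF1: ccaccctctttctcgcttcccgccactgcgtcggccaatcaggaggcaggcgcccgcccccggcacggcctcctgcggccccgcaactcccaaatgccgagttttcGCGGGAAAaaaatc
DTL: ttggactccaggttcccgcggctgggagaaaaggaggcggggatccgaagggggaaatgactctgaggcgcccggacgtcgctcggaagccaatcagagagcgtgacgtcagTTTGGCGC

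GINS2, a part of the replicative helicase, fell by 2.45 on the log2 scale. UHRF1, which carries DNA methylation through replication, and DTL, which marks proteins for removal in S phase, each fell by 2.21.

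Genes of cholesterol synthesis and uptake were lower at Day 14 in 22 of 24 cases and higher in 0, with a median log2 fold change of -1.88, and 19 of the 22 were at least 2-fold lower. MVD, mevalonate decarboxylase (chromosome 16, 88651935 to 88663161, minus strand), was at 108, 108 and 115 CPM at Day 10 and at 22.5, 18.5 and 16.1 CPM at Day 14. The groups were far apart, and MVD fell by 2.53 ± 0.13 (adjusted p = 2.26e-13). IDI1, which makes dimethylallyl diphosphate, read 912, 934 and 945 CPM and then 184, 170 and 136 CPM. It fell by 2.51 ± 0.08 (adjusted p = 5.27e-21). MSMO1, a sterol demethylase, read 2278, 2334 and 2445 CPM and then 530, 500 and 407 CPM, again with no overlap and with Day 14 replicate 3 lowest. MSMO1 fell by 2.30 ± 0.09 (adjusted p = 1.78e-19).

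SREBF2, the SREBP of sterol genes, fell less, from 38.7 ± 2.62 to 27.5 ± 1.23 CPM (log2 fold change -0.49 ± 0.09). NPC1L1, an intestinal and biliary sterol transporter, was not called. Cholesterol genes summed to 8549 ± 264 CPM at Day 10 and 2668 ± 228 CPM at Day 14, with 7121 ± 42.5 and 10013 ± 861 CPM at Days 3 and 7, 3207 ± 121 and 3076 ± 189 CPM at Days 21 and 28, and 1916 ± 14 CPM in the monolayer. Only 18 of 24 members had a promoter in the table, so a motif count is incomplete. The letters TCACNCCAC of the sterol element were in 1 of these 18 (5.56%), against 1.15% of all promoters and 1.21% of those of tested genes.

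In fatty acid and triglyceride synthesis 13 of 28 genes were lower and 3 higher (median -0.30). FADS2, a fatty acid desaturase, read 10.8, 9.61 and 8.84 CPM at Day 10 and 1.5, 1.47 and 0.634 CPM at Day 14 and fell by 3.01 ± 0.23 (adjusted p = 1.22e-12). SCD, which makes oleate, went from 1454 ± 198 to 318 ± 42.0 CPM and FASN, fatty acid synthase, from 602 ± 57.0 to 197 ± 17.5 CPM. ACSS2, which makes acetyl-CoA from acetate, went from 267 ± 27.9 to 57.0 ± 6.44 CPM. GPAM, the first enzyme of glycerolipid assembly, rose from 18.2 ± 1.52 to 47.9 ± 4.95 CPM (log2 fold change 1.40 ± 0.13, adjusted p = 1.93e-10).

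**Figure D2:**
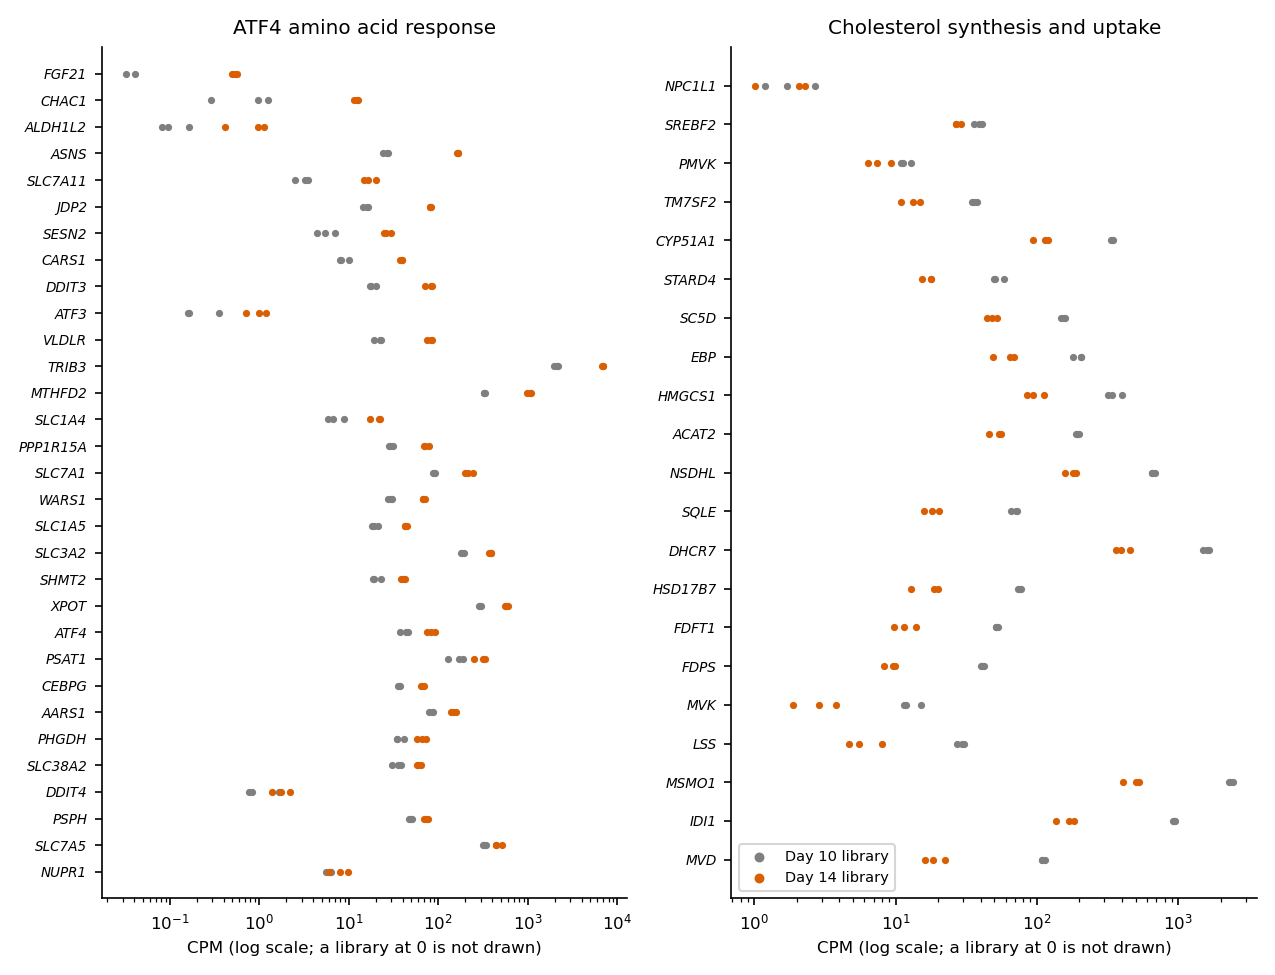
CPM on a log axis in each of the 3 Day 10 libraries (grey) and 3 Day 14 libraries (orange) for the 31 tested members of the ATF4 amino acid response list (left) and 21 of 24 tested members of the cholesterol list (right). Orange points lie to the right of grey points for nearly all ATF4 genes and to the left for nearly all cholesterol genes; DDIT4 and NUPR1 on the left and NPC1L1 on the right overlap.

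The ATF4 amino acid response rose as a group: 30 of 31 genes were called higher and 0 lower (median 1.30), and 20 of them at least 2-fold. ASNS, asparagine synthetase (chromosome 7, 97852118 to 97872542, minus strand), was at 24.2, 26.5 and 27.4 CPM at Day 10 and 160, 167 and 166 CPM at Day 14. The replicates were tight and the days did not overlap, at a log2 fold change of 2.66 ± 0.07 (adjusted p = 2.75e-24). CHAC1, which degrades glutathione, read 0.290, 1.25 and 0.968 CPM and then 12.2, 12.8 and 11.5 CPM (3.78 ± 0.31, adjusted p = 2.67e-10). SLC7A11, the cystine importer, read 2.52, 3.21 and 3.55 CPM and then 16.5, 15 and 20.0 CPM (2.46 ± 0.17, adjusted p = 8.03e-14).

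Regulators of the pathway rose as well. ATF4 itself went from 42.3 ± 4.61 to 82.8 ± 8.21 CPM (0.97 ± 0.10) and DDIT3, the transcription factor CHOP, from 18.4 ± 1.44 to 80.3 ± 7.60 CPM (2.13 ± 0.10). TRIB3, a pseudokinase that feeds back on ATF4, went from 2087 ± 131 to 6907 ± 108 CPM (1.73 ± 0.10) and SESN2, a leucine sensor, from 5.63 ± 1.29 to 26.7 ± 2.40 CPM (2.26 ± 0.13). DDIT4, an inhibitor of mTORC1, read 1.08 ± 0.492 and 1.78 ± 0.413 CPM and was the 1 member not called. In the monolayer TRIB3 stood at 35332 CPM and ASNS at 541 CPM, above every spheroid day. ER chaperones and other genes of the unfolded protein response were divided, 11 of 25 higher and 9 lower (median 0.24): SEL1L, of ER degradation, rose from 23.7 ± 2.81 to 52.8 ± 4.92 CPM and CRELD2, an ER disulfide protein, fell from 28.2 ± 2.50 to 14.6 ± 0.465 CPM.

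The letters TGATGNAA, the amino acid response element to which ATF4 binds with C/EBP partners, were on either strand of 8 of 26 promoters of the list (30.77%), against 3.67% of all promoters and 1.77% of those of tested genes. PSPH, SHMT2, ALDH1L2, SLC7A11 and NUPR1 had no entry. This share too describes a textbook list, and its part in the rise was not tested. The 3 windows below belong to the members with the largest changes that hold these letters before the start at 5 CPM or more, and the letters or their reverse complement are in capitals. CHAC1 lies at chr15:40953222-40953341 on the plus strand, ASNS at chr7:97872409-97872528 on the minus strand and AARS1, the alanyl-tRNA synthetase, at chr16:70289614-70289733 on the minus strand.
CHAC1: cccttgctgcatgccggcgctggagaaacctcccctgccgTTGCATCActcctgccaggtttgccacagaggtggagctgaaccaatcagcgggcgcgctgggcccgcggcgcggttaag
ASNS: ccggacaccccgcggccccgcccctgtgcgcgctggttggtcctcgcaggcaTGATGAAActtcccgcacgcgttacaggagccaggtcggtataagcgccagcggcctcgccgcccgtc
AARS1: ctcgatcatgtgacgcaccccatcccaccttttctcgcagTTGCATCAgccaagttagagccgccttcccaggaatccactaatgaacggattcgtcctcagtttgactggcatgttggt

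AARS1 rose from 83.7 ± 4.38 to 148 ± 8.10 CPM, a smaller log2 fold change (0.82 ± 0.07) than those of ASNS and CHAC1.

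MAT2A and TAT, enzymes of methionine use and amino acid breakdown, were among the 8 largest rises, though the list of amino acid catabolism was mixed. MAT2A, which makes S-adenosylmethionine, read 68.2, 68.6 and 65.4 CPM at Day 10 and 606, 549 and 644 CPM at Day 14 (log2 fold change 3.15 ± 0.07, adjusted p = 3.83e-26). TAT, tyrosine aminotransferase, read 43.4, 45.0 and 40.6 CPM and then 262, 243 and 300 CPM (2.64 ± 0.10, adjusted p = 1.11e-17). In both genes the lowest Day 14 library was more than 5 times the highest Day 10 library. CTH and CBS, which turn homocysteine into cysteine, went from 20.3 ± 0.921 to 83.6 ± 3.85 CPM and from 104 ± 3.95 to 321 ± 13.5 CPM, and CBS has a near-identical copy that makes its value uncertain. NAGS, which makes the activator of the urea cycle, went from 8.10 ± 0.0673 to 33.1 ± 3.62 CPM. Over the list of urea cycle and amino acid catabolism 14 of 35 genes were higher and 8 lower (median 0.18). GLUD1, glutamate dehydrogenase, fell from 14.7 ± 2.72 to 8.95 ± 1.37 CPM. CPS1, which starts the urea cycle, was at 11.1 ± 1.91 and 8.67 ± 1.28 CPM (adjusted p = 0.0434), a call lost in 7 of 15 other settings.

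**Figure D3:**
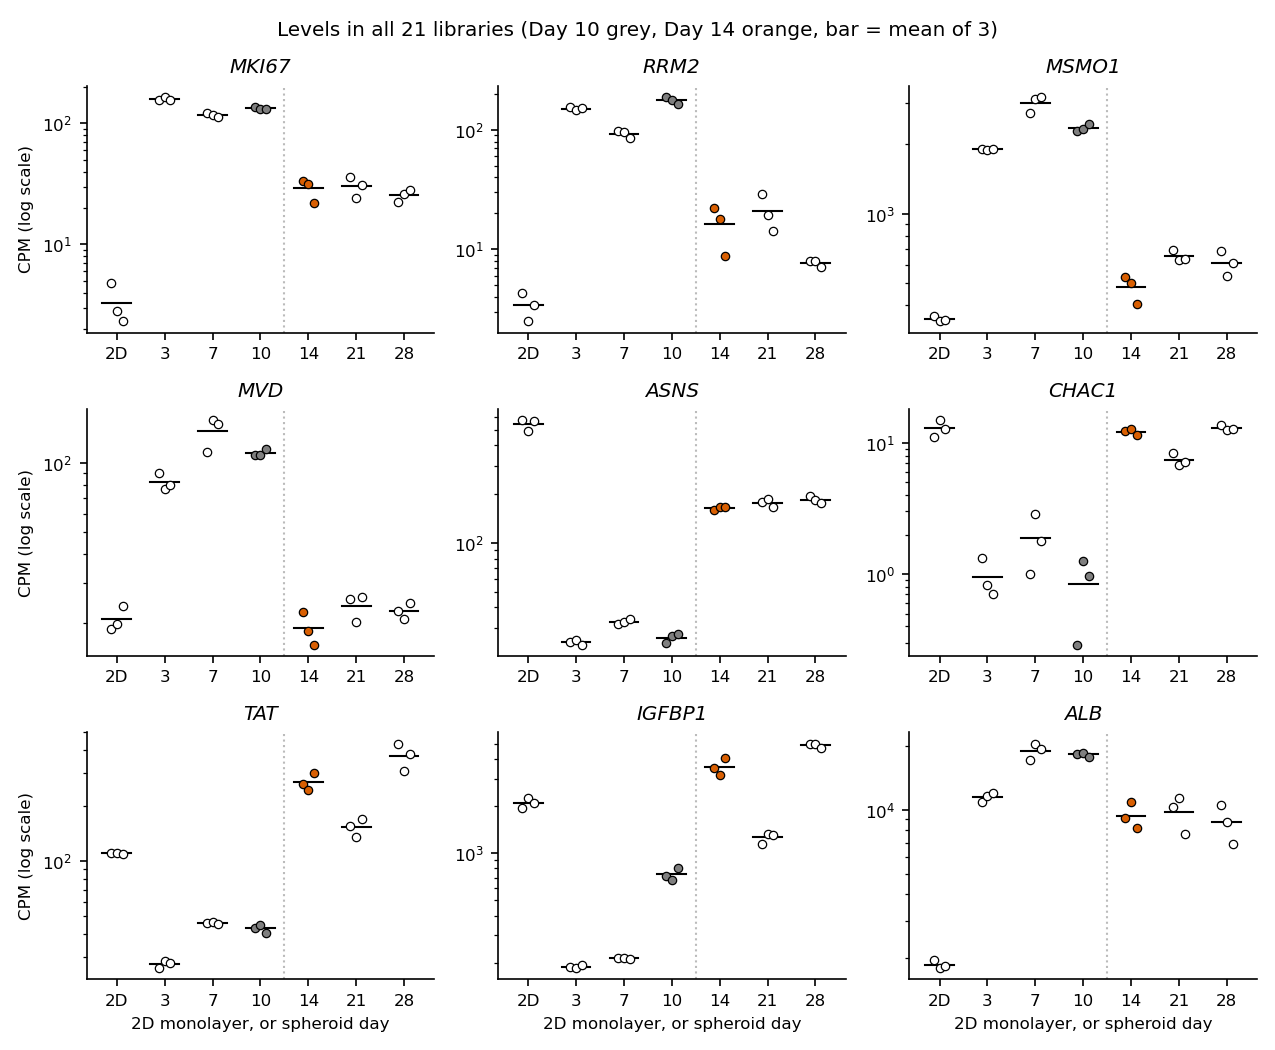
CPM on a log axis of 9 genes in all 21 libraries, by 2D monolayer or spheroid day, with a bar at the mean of 3 libraries; Day 10 is grey, Day 14 orange and a dotted line separates them. MKI67, RRM2, MSMO1, MVD and ALB are lower in all 3 Day 14 libraries than in all Day 10 libraries, and ASNS, CHAC1, TAT and IGFBP1 are higher.

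Levels on the later days stayed nearer to Day 14 than to Day 10 for most of the genes in the plot of 9 genes. MKI67 averaged 30.3 and 25.4 CPM at Days 21 and 28, MVD 23.9 and 22.7 CPM and ASNS 177 and 185 CPM. IGFBP1, a binding protein of IGFs that insulin represses, did not hold its level: it averaged 732 ± 64.8 CPM at Day 10, 3573 ± 459 CPM at Day 14, 1268 CPM at Day 21 and 4900 CPM at Day 28. These are levels with no test.

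Protein synthesis genes were mostly higher, by small amounts. Of 63 cytosolic ribosomal protein genes 47 were called higher and 1 lower (median 0.45), only 2 of them by 2-fold or more. RPL21 went from 736 ± 46.5 to 1926 ± 196 CPM, RPS9 from 21.9 ± 0.593 to 45.6 ± 3.21 CPM and RPL7 from 18.7 ± 2.21 to 33.5 ± 1.40 CPM; many ribosomal protein genes have processed copies, so single values are uncertain. Of 35 ribosome biogenesis genes 19 were higher and 4 lower (median 0.24). RRP12, a pre-ribosome export factor, rose from 14.3 ± 1.26 to 30.8 ± 2.74 CPM, and NOP56, of the box C/D particle, fell from 317 ± 39.1 to 207 ± 14.9 CPM. URB2, of early ribosome assembly, read 3.85, 3.73 and 2.65 CPM and then 5.81, 35.4 and 48.4 CPM. Day 14 replicate 1 lay near the Day 10 libraries, and the call (adjusted p = 0.000658) was lost in 1 of 15 other settings, at an adjusted p of 0.0534.

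Glycolysis and hypoxia genes were lower as groups than at Day 10, when both sums were the highest of the spheroid days. Glycolysis genes summed to means of 4800, 4050, 5797 and 3602 CPM at Days 3, 7, 10 and 14. Hypoxia genes summed to 2902, 3191, 5247 and 3467 CPM on the same days. Days 21 and 28 had 2889 and 3538 CPM for glycolysis and 2544 and 2956 CPM for hypoxia. The monolayer had 3819 and 4612 CPM. In glycolysis 11 of 17 genes were called lower and 1 higher (median -0.89). LDHA, lactate dehydrogenase A, read 894, 835 and 844 CPM at Day 10 and 389, 345 and 308 CPM at Day 14 (log2 fold change -1.30 ± 0.08, adjusted p = 1.88e-15). PKM, pyruvate kinase, went from 454 ± 27.0 to 191 ± 25.1 CPM and ALDOC, an aldolase, from 10.9 ± 0.952 to 3.97 ± 0.115 CPM. HK2, hexokinase 2, was called higher at 884 ± 125 and 1032 ± 50.2 CPM, but its libraries overlapped and 6 of 15 other settings lost the call.

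Of 29 hypoxia and HIF target genes 18 were lower and 3 higher (median -0.57). PFKFB4, which sets the level of a glycolysis activator, read 26.6, 28.4 and 33.5 CPM and then 6.73, 4.93 and 3.87 CPM (-2.50 ± 0.15, adjusted p = 5.21e-15). SLC2A3, a glucose transporter with a near-identical copy, went from 276 ± 10.8 to 60.7 ± 17.2 CPM and ANKRD37 from 36.8 ± 1.91 to 10.3 ± 1.80 CPM. VEGFA, the angiogenic HIF target, was slightly higher, at 249 ± 19.9 and 287 ± 1.13 CPM (0.20 ± 0.06, adjusted p = 0.00603), a call lost in 1 of 15 other settings, and MXI1, a MYC antagonist, rose from 68.0 ± 5.96 to 85.4 ± 1.49 CPM. Only 23 of 29 promoters were in the table, so a motif count is incomplete. The letters ACGTG were on either strand of 10 of the 23 (43.48%), against 21.61% of all promoters and 26.38% of those of tested genes. Their part in the changes was not tested.

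In oxidative phosphorylation 31 of 61 genes were lower and 6 higher (median -0.25), among them ATP5ME, of ATP synthase, from 723 ± 27.6 to 397 ± 46.7 CPM. In the tricarboxylic acid cycle 11 of 19 were lower and 1 higher (median -0.38): IDH2 went from 278 ± 22.8 to 139 ± 24.6 CPM, and IDH3A rose from 178 ± 3.14 to 229 ± 8.09 CPM. Of 39 mitochondrial ribosome genes 14 were lower and 5 higher, and of 34 proteasome genes 15 were lower and 1 higher (medians -0.17 in each).

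Among secreted proteins of the hepatocyte ALB, albumin, read 18368, 18577 and 17734 CPM at Day 10 and 9100, 10842 and 8155 CPM at Day 14, with no overlap, and fell by 0.96 ± 0.14 (adjusted p = 2.12e-05). AFP, alpha-fetoprotein, went from 15942 ± 682 to 10351 ± 1425 CPM (-0.62 ± 0.15) and TF, transferrin, from 4743 ± 597 to 2477 ± 476 CPM. Of 21 plasma protein genes 10 were lower and 5 higher (median -0.13); PON1, an HDL esterase, fell from 66.0 ± 5.81 to 25.1 ± 5.78 CPM and ITIH3, of the inter-alpha-trypsin inhibitor family, rose from 13 ± 1.40 to 35.7 ± 4.38 CPM. Apolipoproteins were lower in 8 of 19 cases and higher in 2 (median -0.24). APOE, for instance, was higher at 160 ± 11.2 against 119 ± 5.57 CPM.

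Complement genes were higher in 10 of 15 cases and lower in 0 (median 0.68). C4A and C4B, near-identical copies on chromosome 6, went from 79.8 ± 4.44 to 169 ± 8.97 CPM and from 190 ± 1.67 to 442 ± 25.0 CPM; C4BPA, which holds complement in check, went from 74.1 ± 1.40 to 161 ± 3.19 CPM. Coagulation genes were higher in 9 of 20 cases and lower in 3 (median 0.24). FGA, the fibrinogen alpha chain, read 925, 940 and 999 CPM at Day 10 and 2100, 2109 and 1942 CPM at Day 14 (log2 fold change 1.10 ± 0.08, adjusted p = 1.10e-12). F7, factor VII, rose from 49.3 ± 2.90 to 129 ± 7.32 CPM and CPB2, a brake on clot breakdown, fell from 150 ± 5.68 to 88.2 ± 17.0 CPM. Acute phase genes were divided, 5 of 11 higher and 4 lower. SERPINA3, alpha-1-antichymotrypsin, had the largest rise of them: 21.6, 24.9 and 27.9 CPM at Day 10 and 190, 143 and 216 CPM at Day 14 (2.88 ± 0.24, adjusted p = 6.87e-08).

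Hepatocyte transcription factors were higher in 10 of 23 cases and lower in 1 (median 0.28). CEBPB, a C/EBP factor that pairs with ATF4, read 53.4, 58.7 and 49.9 CPM and then 271, 255 and 272 CPM (2.30 ± 0.07, adjusted p = 1.03e-22). Its relative CEBPA went the other way by a small amount, from 158 ± 3.35 to 134 ± 10.6 CPM (adjusted p = 0.00767), and 1 of 15 other settings lost that call. HNF4A, the master regulator of the hepatocyte, was at 17.9 ± 1.82 and 21.8 ± 2.16 CPM (0.28 ± 0.11, adjusted p = 0.0279), a call lost in 3 of 15. KLF15, a factor of amino acid breakdown and glucose production, rose from 9.28 ± 1.57 to 61.5 ± 2.78 CPM (2.74 ± 0.11, adjusted p = 2.33e-19).

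Of 25 phase I genes 9 were higher and 5 lower (median 0.15), and of 23 phase II genes 2 were higher and 10 lower (median -0.36). MAOA, an amine oxidase, rose from 10.1 ± 1.80 to 21.7 ± 0.857 CPM and ALDH1A1, a retinaldehyde dehydrogenase, fell from 227 ± 3.56 to 122 ± 13.5 CPM. MGST1, a microsomal glutathione transferase, fell from 1060 ± 72.8 to 393 ± 72.9 CPM. CYP3A4, the main drug oxidase of adult liver, was near 1 CPM: it read 1.08, 1.09 and 1.16 CPM and then 0.299, 0.245 and 0.967 CPM. Its call (-1.14 ± 0.45, adjusted p = 0.0368) was lost in 7 of 15 other settings, and without Day 14 replicate 3 the log2 fold change was -2.00. CYP7A1, which controls bile acid production, was at 0.850 ± 0.329 and 0.712 ± 0.395 CPM and was not called (adjusted p = 0.644). Hepatic transporters were higher in 10 of 20 cases and lower in 3 (median 0.22): SLC17A2, a phosphate transporter relative, rose from 15.5 ± 0.946 to 92.6 ± 9.53 CPM and SLC22A7, an organic anion carrier, fell from 12 ± 1.31 to 3.55 ± 0.714 CPM.

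Metallothionein and zinc genes were lower in 6 of 13 cases and higher in 2 (median -1.38). MT1G went from 175 ± 20.0 to 37.8 ± 15 CPM, with copies that make single values uncertain. NRF2 genes were lower in 13 of 25 cases and higher in 4 (median -0.32); PRDX1, a peroxidase, fell from 235 ± 7.09 to 112 ± 16.3 CPM and SRXN1, which repairs such peroxidases, rose from 77.6 ± 3.15 to 142 ± 12.9 CPM. Actin and focal adhesion genes were lower in 16 of 33 cases and higher in 2 (median -0.28). ACTB, beta-actin, read 286, 307 and 293 CPM and then 136, 120 and 116 CPM, so a gene often used as a constant reference fell by 1.25 ± 0.08 (adjusted p = 5.90e-15).

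Growth signalling genes moved in mixed ways. Of 21 IGF and insulin signalling genes 11 were higher and 4 lower (median 0.35). IRS1, the first adaptor of the insulin receptor, read 17.1, 17.3 and 18.2 CPM and then 59.7, 52.6 and 67.4 CPM (1.77 ± 0.10, adjusted p = 1.85e-16). DEPTOR, an inhibitor of mTOR, rose from 2.44 ± 0.540 to 7.60 ± 0.763 CPM and MTOR from 118 ± 7.99 to 189 ± 21.0 CPM, while GRB14, an inhibitor of the insulin receptor, fell from 22.1 ± 0.838 to 12.5 ± 0.792 CPM. Immediate early genes were higher in 14 of 27 cases and lower in 2 (median 0.60): EGR1 went from 2.53 ± 0.211 to 11.7 ± 0.920 CPM and MYC from 288 ± 15.3 to 554 ± 30.8 CPM. Of 14 TGF-beta and BMP targets 7 were higher and 3 lower; INHBE, an activin subunit made by liver, rose from 8.65 ± 1.66 to 31.1 ± 1.46 CPM and ID3 fell from 44.7 ± 3.15 to 11.4 ± 3.62 CPM. ID1, a BMP target counted here with iron genes, fell from 1216 ± 104 to 451 ± 76.8 CPM.

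Stress and death lists split much as all genes did, of which 24.0% were higher and 24.3% lower. The shares were 28.6% each way for p53 targets, 25% higher and 30% lower for apoptosis, and 28.1% each way for lysosome and autophagy. Of 28 p53 targets 8 were higher and 8 lower, with BBC3, which encodes the death factor PUMA, up from 37.6 ± 4.01 to 105 ± 6.55 CPM. BMF, another BH3-only death factor, rose from 8.39 ± 1.21 to 41.5 ± 3.97 CPM, while over the apoptosis list 5 of 20 genes were higher and 6 lower. In the lysosome and autophagy list 9 of 32 were higher and 9 lower; MAP1LC3B, the LC3 protein of autophagosomes, rose from 370 ± 24.0 to 990 ± 83.5 CPM and GLA, a lysosomal galactosidase, fell from 32.6 ± 4.03 to 8.88 ± 2.51 CPM. Fetal liver genes were lower in 11 of 16 cases and higher in 3 (median -0.48): DLK1 went from 903 ± 17.7 to 487 ± 42.8 CPM.

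Some of the largest changes were in genes of no list. GPR83, a G protein-coupled receptor, read 1.74, 1.12 and 1.55 CPM at Day 10 and 26.6, 18 and 25.9 CPM at Day 14 (log2 fold change 4.03 ± 0.33, adjusted p = 4.56e-08). AKNA, an AT-hook protein, read 6.25, 6.21 and 6.13 CPM and then 45.3, 49.7 and 53.8 CPM (3.00 ± 0.12, adjusted p = 9.63e-20). Both stood higher in the monolayer, at 231 and 90.3 CPM. IL17B, a cytokine of the IL-17 family, went from 24.4 ± 0.904 to 3.33 ± 0.732 CPM (-2.87 ± 0.17, adjusted p = 2.37e-15).

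The step was then set against the step from Day 3 to Day 7, which also lasts 4 days and shares no library with it. The difference between the steps was called in 4484 genes (36.3%), more positive from Day 10 to 14 in 2104 (17.0%) and more negative in 2380 (19.3%). Scaled by library size alone, the split was 2764 and 1925. The step was picked as the largest with earlier results of these data known. Many such calls were therefore likely, and the counts here and for the lists are a description. The change from Day 10 to 14 was more negative in 40 of 43 mitosis, 40 of 46 replication and 23 of 24 cholesterol genes. Of all 12345 genes tested, 1312 were called higher from Day 3 to 7. Cholesterol genes went in opposite directions in the steps: 16 of 24 were called higher from Day 3 to 7 and 22 lower from Day 10 to 14. The change was more positive in 28 of 31 ATF4 genes and 44 of 63 ribosomal protein genes. Plasma proteins of the hepatocyte were called higher in 16 of 21 cases from Day 3 to 7, and the later change was more negative in 13 of 21. For complement the difference was more positive in 6 of 15 genes and more negative in 2.

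**Figure D4:**
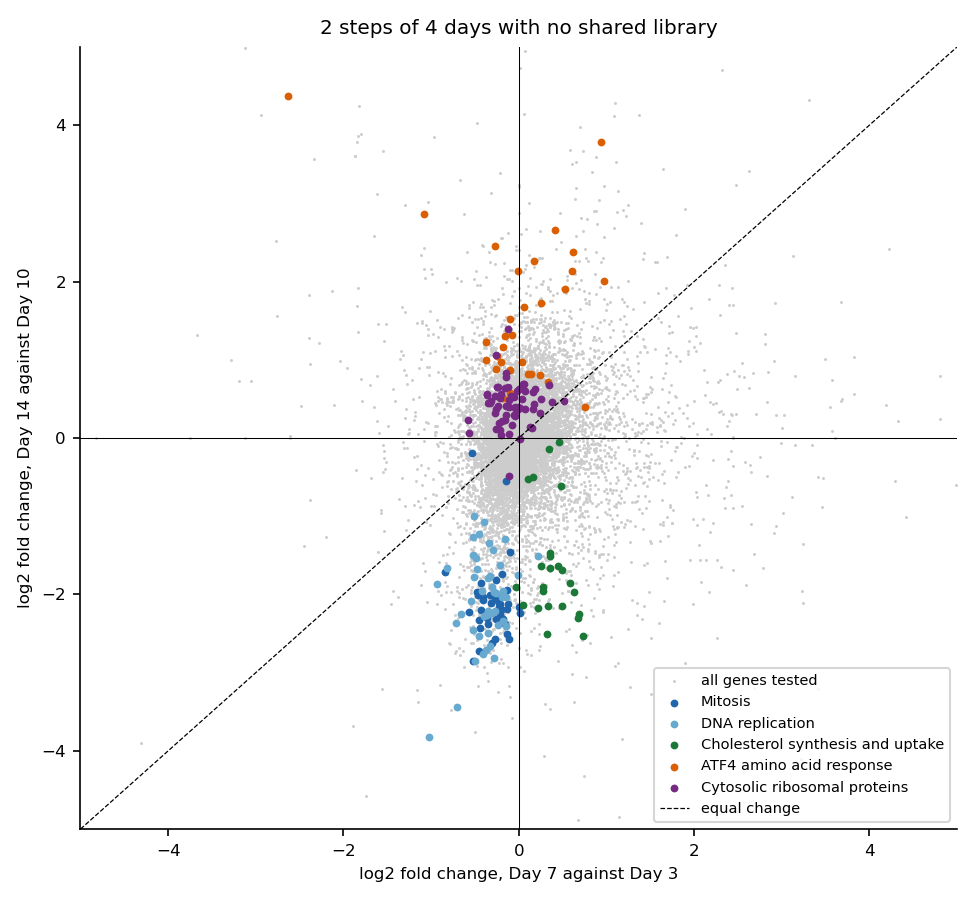
Each point is 1 tested gene, placed by its log2 fold change from Day 3 to 7 (horizontal) and from Day 10 to 14 (vertical); 5 lists are coloured, the dashed line marks equal change, and 21 genes lie outside the axes. Mitosis, replication and cholesterol genes lie low on the vertical axis near 0 on the horizontal axis, with medians of -0.25, -0.36 and 0.35 from Day 3 to 7, and ATF4 genes lie high, with a median of -0.0037 from Day 3 to 7.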

How the data were processed

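The values are whole-number counts for each gene symbol, as the authors deposited them. Of tools, STAR 2.7.10b, fastp 0.23.2, bcl2fastq 2.20.422 and DESeq2 1.38.0 appear in the submitters' processing notes without roles, beside GRCh38.p13. The sources used here do not say how several oligos of a gene were combined. Because an oligo pair reads only a short piece of each RNA, levels compare libraries, not genes.

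Genes passing filterByExpr (minimum count 10) were kept, 12345 of 19683; those removed held 0.0108% of counts. One robust quasi-likelihood fit in edgeR 4.0.16 (R 4.3.3) held all 21 libraries with TMM scaling, and calls needed an adjusted p (Benjamini-Hochberg) under 0.05. The fit was also run on simulated data, with far fewer changed genes than were called here and the same fixed spread for every gene. That run therefore does not vouch for the calls of this comparison. CPM use TMM-scaled totals, and the series' totals ran from 18760232 to 43443262. Replicate pairs differed by more than sampling noise (chi-square per degree of freedom 6.62 to 22.1). Alternatives used other scalings and filters, DESeq2 1.42.0, limma 3.58.1 voom, a replicate block, the 6 libraries alone, and each replicate left out.

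The members, the 52 gene lists and the tests were chosen with earlier results of these data known. The rule for named genes took the 8 largest rises and 8 largest falls (mean of at least 10 CPM, no overlap), the members that changed most in each list, 10 chosen genes, and 8 genes by the difference of steps. It gave 151 genes, more than can be given in full. Members named beyond it, such as SREBF2, FASN, TRIB3, CTH, FGA and those with a printed promoter, were chosen after their values were seen. Some genes that the rule or the lists hold are not reported here. Promoters are from RefSeq (GRCh38.p14), and locations from GENCODE 29 on GRCh38, matched by symbol.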

Additional observations from a re-analysis of the deposited data

Results flagged for a closer look

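In 132 of the 151 named genes the change from Day 10 to 14 differed from the change from Day 3 to 7. This is by edgeR's test of the difference itself (adjusted p under 0.05), which called 36.3% of all genes tested. Most named genes were picked for large changes from Day 10 to 14, and 8 by this difference, so a high count was built in. Those 8 are given here as that difference on the log2 scale. They are the 4 most positive and the 4 most negative. The genes had to average 10 CPM or more over the 12 libraries of the steps and not overlap between Days 10 and 14. NBPF8, which has near-identical copies, was at 2.97 (adjusted p = 0.00011), SERPINA3 at 2.88 (adjusted p = 5.88e-06), AKNA at 2.88 (adjusted p = 1.79e-14) and CD55, which shields cells from complement, at 2.75 (adjusted p = 1.78e-09). CD55 rose from 17.3 ± 0.484 to 102 ± 5.58 CPM (n = 3) between Days 10 and 14. On the negative side IL17B was at -4.77 (adjusted p = 6.25e-17), TUBB1, a beta-tubulin of blood platelets, at -3.30 (adjusted p = 4.23e-14), MVD at -3.27 (adjusted p = 2.26e-12) and ACSS2 at -3.18 (adjusted p = 3.34e-12). IL17B averaged 8.68 and 32.2 CPM at Days 3 and 7 and 24.4 and 3.33 CPM at Days 10 and 14, so it rose in the earlier step and fell in the later one. TUBB1 went from 53.9 ± 5.86 to 9.02 ± 1.58 CPM. Single outlying libraries were not tested for in groups of 3.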

How the results depend on the processing

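The 28 main counts (called genes, the difference of steps and the lists with at least 50% of members called one way) stayed within 1.5 times their values in all 435 repeats, and so did those of the other lists in the direction most called, except the WNT list: its 6 genes called lower became 3 without Day 10 replicate 2, and likewise without Day 14 replicate 3. Called genes numbered 5771 to 6182 under other scalings, filters and tools, and 5211 (without Day 14 replicate 3) to 5678 (without Day 10 replicate 3) with 1 library left out. The median log2 fold change of all genes was 0.07 when scaled by library size alone, against 0.02. Of 150 named genes called, 138 kept their call in each of 15 settings; the other 12 were CCL20, CDK2, CDKN1A, CEBPA, CPS1, CYP3A4, HK2, HNF4A, NUAK2, TGFB1, URB2 and VEGFA. CYP7A1, not called, ranged from -0.81 (without Day 14 replicate 3) to 0.047, a change of sign, without Day 10 replicate 3. Same-numbered libraries of the 2 days did not deviate together (correlations 0.0067, 0.016 and 0.062), and not every library correlated best with its own number. No pairing by number was seen, but deviations from means of 3 libraries cannot exclude that same-numbered libraries shared a culture. A replicate block gave 6061 called genes, and 4644 for the difference of steps. Genes near 1 CPM, such as CYP3A4, rest on few counts.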

Other observations

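Interferon genes were called near the shares of all genes (24.0% higher and 24.3% lower), 6 of 30 higher and 6 lower. ISG20, an antiviral exonuclease, rose from 11.4 ± 1.4 to 22.1 ± 0.492 CPM (n = 3), and OAS3, a sensor of viral RNA, fell from 16.9 ± 1.54 to 7.77 ± 0.294 CPM. Genes of NF-kB and chemokines were higher in 7 of 15 cases and lower in 2 (median log2 fold change 0.49), with the adhesion molecule ICAM1 up from 7.19 ± 0.441 to 15.3 ± 0.474 CPM. In the WNT and beta-catenin list 6 of 14 were lower and 3 higher (median -0.16), and 3 were lower without Day 10 replicate 2 or without Day 14 replicate 3. NKD1, a WNT feedback inhibitor, fell from 201 ± 10.4 to 99.0 ± 7.65 CPM and the factor TCF7 rose from 18 ± 1.92 to 28.4 ± 0.363 CPM. Junction and keratin genes were also called near the shares of all genes, 6 of 25 each way. OCLN, occludin, rose from 73.9 ± 6.78 to 134 ± 8.06 CPM and KRT19, a bile duct keratin, fell from 7.24 ± 1.78 to 3.37 ± 0.869 CPM. Matrix genes were lower in 10 of 31 cases and higher in 7: LGALS3, galectin 3, went from 311 ± 3.00 to 82.3 ± 14.5 CPM, and LAMB2, a laminin chain, from 285 ± 9.67 to 493 ± 42.4 CPM. Heat shock genes were lower in 9 of 20 cases and higher in 2; HSP90AA1, the inducible HSP90, fell from 742 ± 14.5 to 434 ± 4.42 CPM. Iron genes were lower in 6 of 15 cases and higher in 3 (median -0.64); TFR2, the iron-sensing transferrin receptor 2, rose from 23.6 ± 2.27 to 57.9 ± 2.82 CPM. Background shares and the test are those of the comparison of Day 14 with Day 10.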
